A study of Mus musculus with 12 samples.

Results

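Expression of 6 genes for fat-digesting proteins of the exocrine pancreas was followed in macrophages sorted from pancreatic tumor tissue and from normal pancreas: Pnlip, Pnliprp1, Pnliprp2, Cel, Clps and Pla2g1b. They were taken by gene name from the array annotation, and all 6 were present, among 16402 genes tested. Together they had 8 probes, of which all 8 passed the filter on low signal, which asked that the scanner software call a probe well above background on 3 or more of a group's 6 arrays. That filter can be passed through the normal pancreas arrays alone.

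Each group had 6 single-color Agilent arrays, and the mice of both groups were labelled female, C57/B6 and 4 to 5 months old, with no genotype stated. The tumor group was labelled as macrophages of pancreas tumor and the normal group as macrophages of normal pancreas. Wild-type animals, KPC animals, in which pancreatic cancer arises genetically, and animals with a FLT3-CRE/LSL-YFP lineage reporter appear in the series' design text, whereas the protocol speaks of implanted tumors, and the labels do not say which animals gave which sample. In each group 2 arrays carried 1 sample name (tumor replicates 4 and 6, normal replicates 2 and 3) and were averaged, which left 5 samples per group. Whether such arrays hold the same RNA is not stated. The labels do not state that the samples came from separate animals, and the p-values therefore reflect only how far these samples spread, part of which may be technical.

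The pancreas secretes fat-digesting enzymes from acinar cells, the exocrine cells that also make proteases and amylase. Pancreatic lipase (Pnlip) cleaves dietary triglyceride in the gut and needs colipase (Clps) to stay bound to fat droplets coated with bile salts. Its relatives Pnliprp1 and Pnliprp2 share its fold. Pnliprp2 also acts on galactolipids and phospholipids, and Pnliprp1 is known for little or no lipase activity. Carboxyl ester lipase (Cel) hydrolyses cholesteryl and other esters and is activated by bile salts, and Pla2g1b, the pancreatic secreted phospholipase A2, releases fatty acids from phospholipids. All 6 are textbook acinar products, and the arrays do not show in which cells of a sort the RNA was made.

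The probes are what each value rests on, and 1 for each of 5 genes is shown first. They are printed 5′ to 3′ as the array files give them, in lower case. The Pnliprp1 and Pnliprp2 probes lie on the plus strand of chromosome 19 in mm9, at chr19:58815028-58815621 and chr19:58848560-58848619. The Pnliprp1 position spans 594 bases for a probe of 60, so its alignment to the genome is interrupted.
Pnliprp1 A_51_P136781: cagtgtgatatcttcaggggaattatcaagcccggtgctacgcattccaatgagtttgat
Pnliprp2 A_51_P314669: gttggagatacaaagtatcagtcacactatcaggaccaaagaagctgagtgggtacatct
Cel (chr2:28411609-28411668, minus strand) A_51_P242205: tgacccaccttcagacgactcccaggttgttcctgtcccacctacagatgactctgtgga
Clps (chr17:28695761-28695820, minus strand) A_55_P2015877: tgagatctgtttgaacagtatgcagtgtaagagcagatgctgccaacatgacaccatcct
Pla2g1b (chr5:115924590-115924649, plus strand) A_51_P280893: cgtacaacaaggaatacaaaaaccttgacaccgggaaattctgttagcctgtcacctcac

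Clps and Pla2g1b each had another probe that holds a polyadenylation signal word. The other Clps probe, A_55_P2015878, starts at base 431 of its transcript, on the minus strand at chr17:28695162-28695221, and was the brighter of the pair. The other Pla2g1b probe, A_55_P2047047, is listed in the files under the cDNA AK019009 and not a RefSeq transcript, on the plus strand at chr5:115921797-115921853. Only their last bases are shown with the signal word in capitals, because the Clps probe gave the gene's value and the Pla2g1b pair gave different answers. Exon and untranslated-region annotation was not used here.
Clps A_55_P2015878: cagctgttggcaATTAAAacccacttgcaa
Pla2g1b A_55_P2047047: gctttcAATAAAtatatgctaatagcgatc
Hybridization of a probe to a related transcript was not tested.

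All 6 genes were lower in macrophages from tumor, with log2 differences (tumor minus normal) of -8.55 to -5.30 and a median difference of -7.23 against -0.0041 over all genes tested. By limma's test 6 of 6 fell at an adjusted p under 0.05, where 0.512% of all genes tested were called lower and 0.847% in either direction. In 6 of 6 the samples of the groups did not overlap, which held for 1.57% of all genes tested in that direction and for 1.74% in the other. Both counts include Pnliprp2, whose tumor readings were at background. With Pnliprp2 at the bound given below the median difference is the same, but that bound, a fall of at least 4.87, is smaller than the -5.30 that ends the range. The sizes depended on the background correction and on single samples: with normexp correction the log2 differences were -6.41 for Pnlip, -5.72 for Pnliprp1, -3.58 for Pnliprp2, -6.20 for Cel, -4.99 for Clps and -6.28 for Pla2g1b. Leaving out 1 sample at a time gave -8.16 (without tumor replicate 5) to -6.89 (without tumor replicate 1) for Pnlip. The same gave -9.29 (without normal replicate 6) to -8.03 (without tumor replicate 1) for Pla2g1b. In bulk samples such as these, fewer cells carrying the RNA and less RNA per cell cannot be told apart. Which cells or material carried it was not tested.

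**Figure D1:**
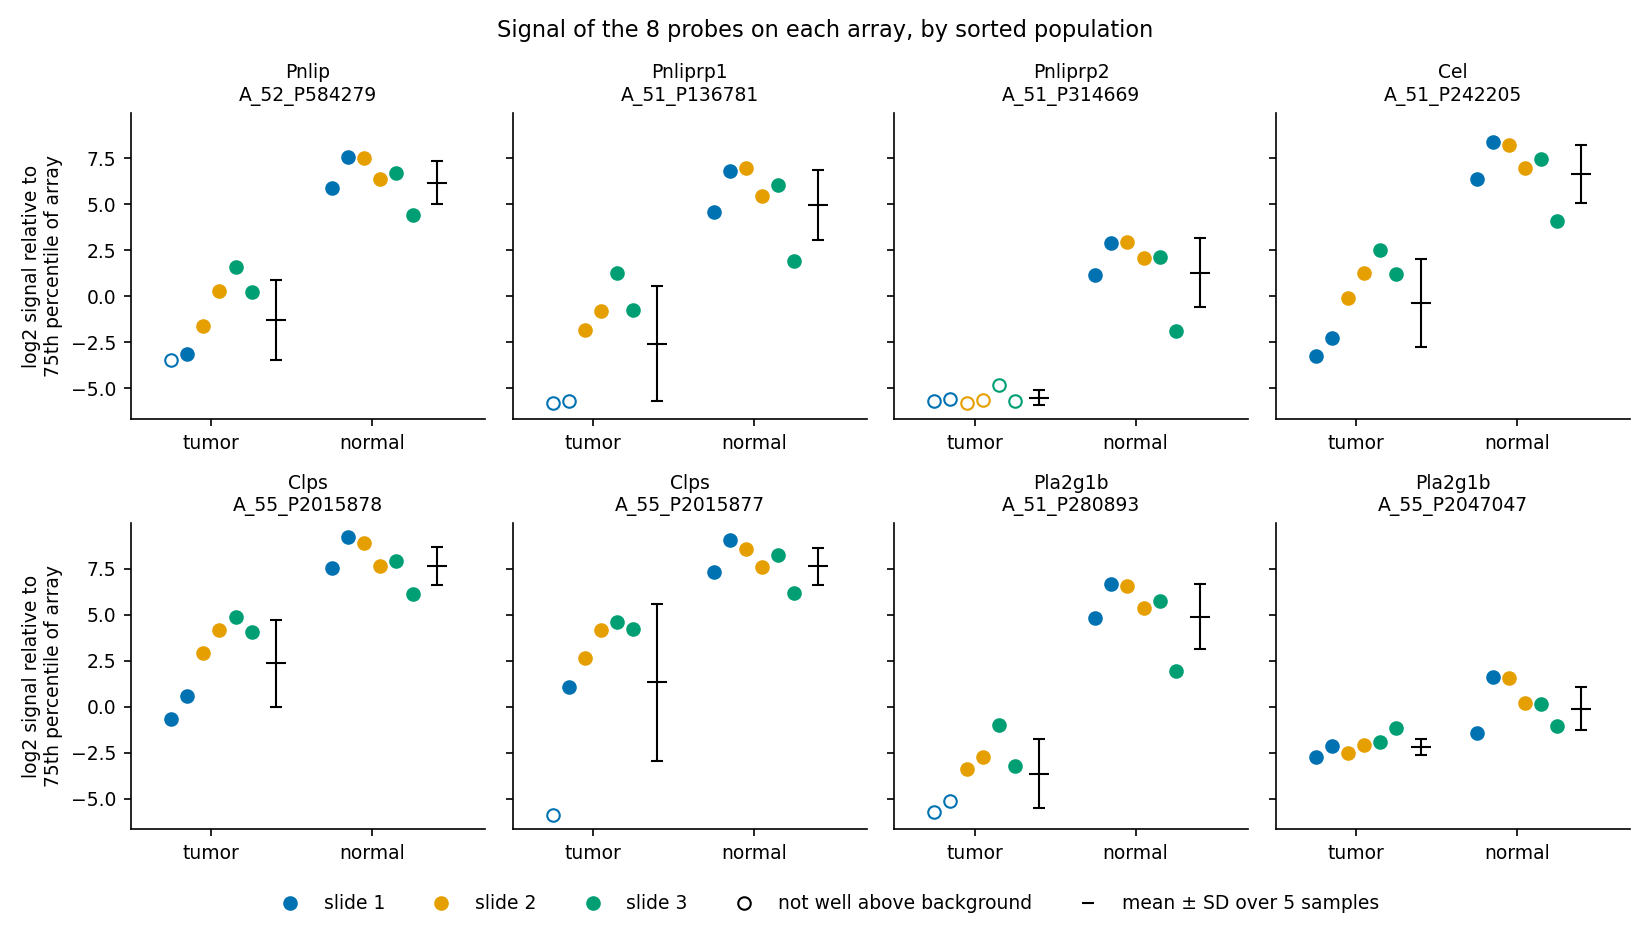
Log2 signal of each probe relative to the 75th percentile of its array (y axis) for the 6 tumor and 6 normal arrays, colored by slide, with open points for arrays where the probe was not well above background and bars for mean ± SD over 5 samples. With arrays of the same sample averaged, the tumor samples of every probe lie below the normal samples. Pnliprp2 is open on all 6 tumor arrays, and for A_55_P2047047 of Pla2g1b the single array of tumor replicate 6 lies above that of normal replicate 1.

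Values below are log2 signals relative to the 75th percentile of each array, given for tumor replicates 1, 2, 3, the average of 4 and 6, and 5, and for normal replicates 1, the average of 2 and 3, 4, 5 and 6. Pnlip, the lipase itself, stood at -3.45, -3.14, -1.58, 0.25 and 1.62 in tumor samples, against 5.87, 7.54, 6.37, 6.69 and 4.40 in normal samples. The brightest tumor sample was thus 2.78 below the dimmest normal sample. Pnlip averaged -1.26 ± 2.18 in tumor and 6.17 ± 1.16 in normal samples (SD, n = 5 each), a fall of 173-fold (log2 difference -7.44 ± 0.96, SE; limma adjusted p = 0.00626). The processed signal of Pnlip was 113 to 3832 on tumor arrays and 32696 to 101961 on normal arrays, and tumor replicate 1 was not well above background.

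Pnliprp1, the relative with little known lipase activity, was at -5.81, -5.68, -1.82, -0.77 and 1.28 in tumor samples, against 4.57, 6.88, 5.44, 6.06 and 1.90 in normal samples. Tumor replicates 1 and 2 were not well above background, and the gap between the nearest samples of the groups was only 0.63. The log2 difference was -7.53 ± 1.42 (SE; limma adjusted p = 0.0402), and 8 of the 10 fits that drop a sample lost the call, with an adjusted p of up to 0.116 in limma.

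Pnliprp2, the relative with a wider range of substrates, cleared the background call on 0 of 6 tumor arrays and on 6 of 6 normal arrays. Its tumor samples read -5.70, -5.56, -5.78, -5.66 and -4.80, against 1.15, 2.93, 2.09, 2.15 and -1.85 in normal samples. The tumor values are readings at background, so the fall is given as a bound, at least 29.2-fold (measured means -5.50 and 1.29). The limma adjusted p of 0.00429 was computed from those readings and not from the bound. The probe passed the filter on low signal through the normal arrays alone. For the bound, every tumor array was set to the dimmest signal that was still well above background on it, unless the probe itself read higher. A probe can read above that signal and still miss the call, as Pnlip did on tumor replicate 1 (-3.45 against -3.54). All bounds given here are therefore approximate. The bound applies to the main processing, in which the measured difference was -6.79. With normexp correction, run with an offset of 50, the difference was -3.58, a smaller fall than the bound of 4.87 log2 units. The processed signal of Pnliprp2 on tumor arrays, 23.2 to 44.6, was below that offset.

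Cel, the bile-salt-activated esterase, was well above background on all 12 arrays. Its signal was -3.26, -2.26, -0.08, 1.23 and 2.50 in tumor samples, against 6.38, 8.30, 6.99, 7.46 and 4.08 in normal samples. The difference was -7.02 ± 1.12 (log2, SE; limma adjusted p = 0.0174), or 130-fold lower in tumor. Without normal replicate 5 the adjusted p was 0.0603 in limma.

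Clps, the cofactor, was by A_55_P2015878 at -0.67, 0.55, 2.91, 4.12 and 4.86 in tumor samples, against 7.55, 9.04, 7.63, 7.93 and 6.12 in normal samples. The difference was -5.30 ± 1.003 (log2, SE; limma adjusted p = 0.0402), or 39.4-fold lower in tumor, and 7 of the 10 fits that drop a sample lost the call (adjusted p up to 0.115 in limma). The upstream probe A_55_P2015877 gave -5.86, 1.07, 2.62, 4.19 and 4.62 in tumor samples, against 7.31, 8.82, 7.57, 8.25 and 6.16 in normal samples. On tumor replicate 1 that probe differed from its partner by -5.19 log2 units and was not well above background, whereas on the other 11 arrays the 2 probes were within 0.52 of each other. With this reading the upstream probe had an SE of 1.69 and, tested on its own, did not pass (-6.29; limma adjusted p = 0.143 over 22446 probes).

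Pla2g1b, the phospholipase, stood by the probe listed under its RefSeq transcript at -5.73, -5.15, -3.37, -2.99 and -1.02 in tumor samples, against 4.84, 6.61, 5.38, 5.73 and 1.93 in normal samples. Tumor replicates 1 and 2 were not well above background. The difference was -8.55 ± 1.01 (log2, SE; limma adjusted p = 0.00457), or 374-fold lower in tumor.

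The Pla2g1b probe listed under AK019009 differed in level and in order. It read -2.74, -2.13, -2.53, -1.64 and -1.91 in tumor samples, against -1.40, 1.60, 0.18, 0.13 and -1.03 in normal samples, and was well above background on all 12 arrays. The groups did not overlap by a margin of 0.23, and the difference of -2.08 ± 0.51 (log2, SE) did not pass when each probe was tested on its own (limma adjusted p = 0.113). Between the arrays of tumor replicates 4 and 6, which share a sample name, this probe differed by 0.91, the most of the 8 probes. With the mean of both probes in place of the brighter one, the Pla2g1b difference was -5.31.

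The 6 genes kept 1 order of samples within each group, with 1 exception. In the tumor group the order from low to high was replicate 1, 2, 3, the average of 4 and 6, and then 5 for 5 of 6 genes. The exception was Pnliprp2, whose tumor readings were at background. In the normal group it was replicate 6, 1, 4, 5 and then the average of 2 and 3 for 6 of 6 genes. The mean of 18 other acinar digestive enzymes had the same order in both groups. So did the mean of the granule products. The regulator list shared only the normal order and the endothelial list only the tumor order, and the mean of 18 macrophage identity genes had it in neither group. Genes measured on the same arrays share RNA and scaling, so these orders are not independent of each other.

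**Figure D2:**
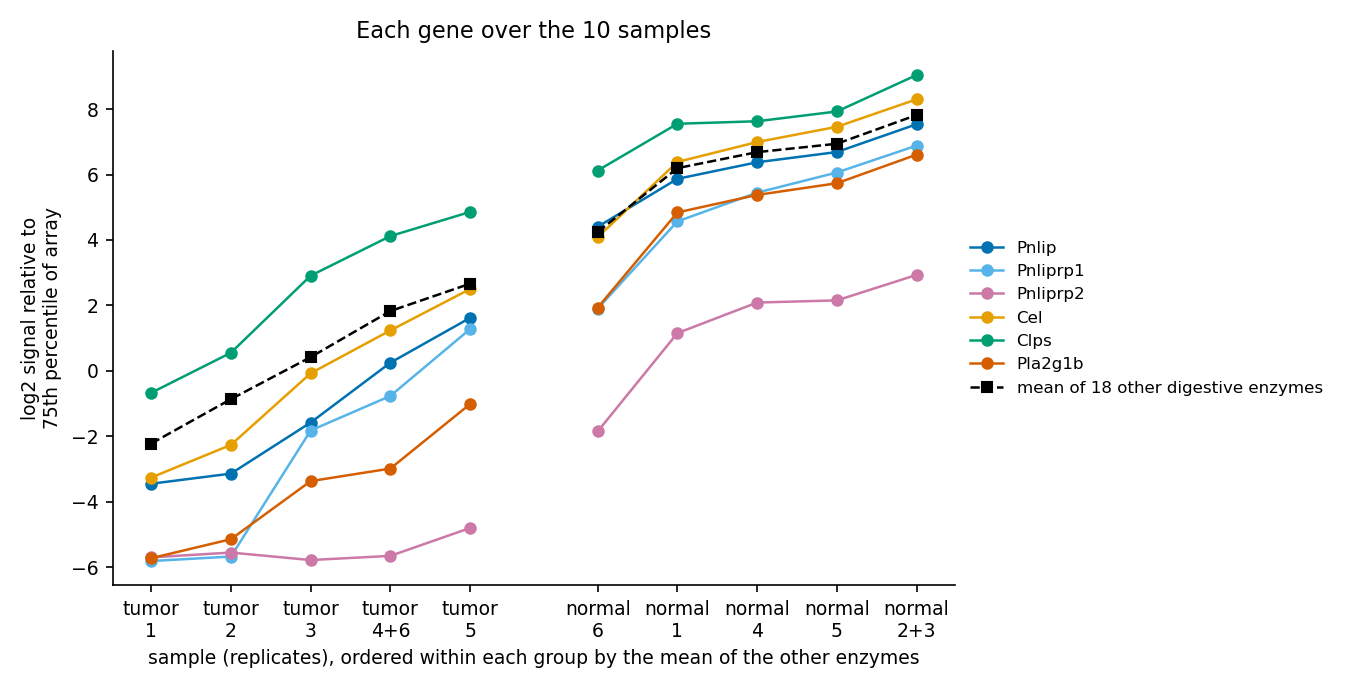
Log2 signal relative to the 75th percentile of the array (y axis) for each of the 6 genes and for the mean of 18 other digestive enzymes (dashed), over the 5 tumor and 5 normal samples, each group sorted by that mean. Within a line the samples can be compared, but heights of different genes cannot, since probes differ. In tumor, Pnliprp2 lies at background from -5.78 to -4.80. Pnliprp1 and Pla2g1b come down near it on replicates 1 and 2, where neither was well above background.

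The arrays lay on 3 slides, each scanned once, with 2 arrays of either group on every slide. Within slide 1 the 6 differences ran from -11.43 to -7.65, within slide 2 from -9.04 to -4.71 and within slide 3 from -5.95 to -2.57 (tumor minus normal, log2). The differences were negative for 6 of 6 genes on every slide, against medians over all genes of -0.024, 0.030 and 0.0084. Within slides 0 passed in limma. At an unadjusted p under 0.05 there were 6, 6 and 5 of the 6, beside 1588, 1561 and 954 of all 16402 genes. With slide as a block and sample name as a random block, 6 of 6 passed, among 149 of 16402 genes called. Arrays of 1 sample name lay on different slides, so the slides are not separate sets of samples. Slides 1 and 3 held different samples: tumor replicates 1 and 2, the lowest, were on slide 1, and tumor replicate 5, the highest, and normal replicate 6, the lowest of its group, were on slide 3. For the probes of the gene test, arrays with the same sample name on different slides were close: tumor replicates 4 and 6 (slides 2 and 3) differed by 0.043 to 0.46, and normal replicates 2 and 3 (slides 1 and 2) by 0.064 to 0.33.

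Summed over the 6 genes, signal amounted to 0.00079% to 0.037% of that of all tested genes on tumor arrays, and 0.122% to 0.724% on normal arrays. The share thus varied 46.7-fold within the tumor group and 5.94-fold within the normal group, and the groups did not overlap. Set against the summed signal of 18 other acinar digestive enzymes, the 6 genes gave 7.06 to 13.4 units per 100 on tumor arrays and 18.6 to 21.2 units per 100 on normal arrays. That ratio spanned 1.89-fold on tumor arrays and 1.14-fold on normal arrays. Among tumor arrays it was lowest on replicates 1 and 2, at 7.46 and 7.06, where the share was lowest too and 4 and 3 of the 6 genes were not well above background. Clps was the largest part of the sum on every array, and more so in tumor. Its part was smallest in tumor on replicate 5 (36133 of 50706) and largest in normal on replicate 6 (107686 of 178702). The share and the ratio are thus weighted towards Clps, to a different degree in each group. The sum of the other enzymes is likewise weighted towards its brightest probes. Ctrb1, Amy2a5 and Cpa1 had the highest mean log2 signals of that list in tumor. They differed by -3.81, -3.74 (-7.89 by another Amy2a5 probe) and -4.82, against a list median of -6.07.

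**Figure D3:**
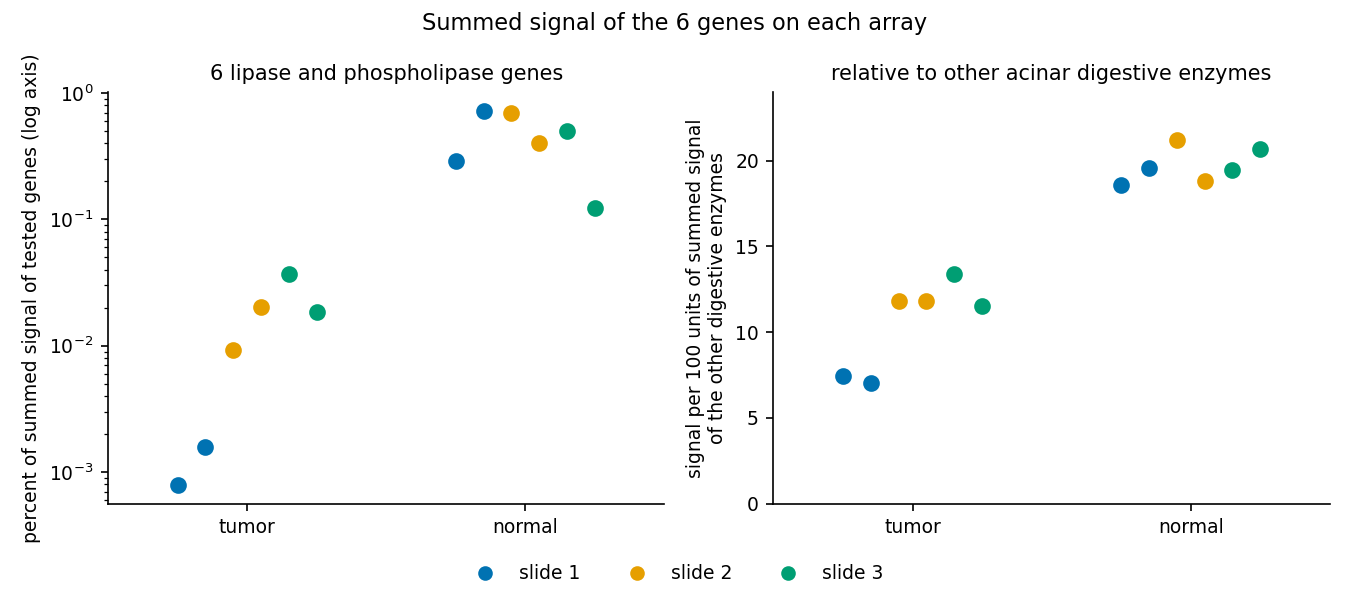
Left, summed processed signal of the 6 genes as a percent of that of all genes tested (log axis); right, the same sum per 100 units of the other 18 digestive enzymes (linear axis from 0), for each of 6 tumor and 6 normal arrays, colored by slide. On the right the tumor arrays sit between 7.06 and 13.4, all below the normal arrays, which sit between 18.6 and 21.2. Clps is the largest part of the summed signal on every array.

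Single genes departed from the mean of those 18 enzymes to different degrees. Relative to that mean, Pla2g1b was at -4.01 ± 0.53 in tumor and -1.48 ± 0.47 in normal samples (log2, SD, n = 5 each), Pnlip at -1.63 ± 0.51 in tumor and -0.20 ± 0.20 in normal samples, and Cel at -0.74 ± 0.48 in tumor and 0.27 ± 0.27 in normal samples. For these 3 probes the groups did not overlap. The AK019009 probe of Pla2g1b was at -2.55 ± 1.65 in tumor and -6.48 ± 0.85 in normal samples, also without overlap. The enzyme mean was -2.22 to 2.66 in tumor and 4.24 to 7.82 in normal samples. A probe that falls less than that mean, as this one did (-2.08), therefore stands higher in tumor relative to it. How many of all genes do not overlap on this relative scale was not counted. The Clps probes gave differences of 0.71 and -0.28, Pnliprp1 gave -1.52 and Pnliprp2 -0.78 (tumor minus normal, log2), and for these 4 probes the groups overlapped. Taking the enzyme mean as a covariate in limma, 0 of 6 genes passed (adjusted p = 0.9998 for each), with 2 lower at an unadjusted p under 0.05, which were Pla2g1b at -2.28 ± 0.74 and Pnliprp2 at -3.68 ± 1.37 (log2, SE). In that fit 0 genes of 16402 passed, and the covariate itself differs between the groups. Of the 6 tumor arrays, 0 cleared the background call for Pnliprp2 and 4 for the Pla2g1b probe of the gene test. Readings at background cannot follow the enzyme mean further down. They make up all tumor values of Pnliprp2 and part of those of Pla2g1b, in this fit and relative to the mean. Relative to the mean they can only make a fall look smaller, while in the fit they also affect the slope. The Pla2g1b probe of the gene test fell further than the mean, and the AK019009 probe fell less. Whether Pnliprp2, or Pla2g1b as a gene, fell more than the other enzymes is therefore not decided by these values.

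The genes whose profiles over the 10 samples lay nearest to the mean of the 6, by root mean square difference after centring, were Klk1b26 (0.31 log2 units), Cela1 (0.52), Cpb1 (0.57), Cela3b (0.61), Klk1b5 (0.63), Klk1 (0.70), Ctrl (0.73) and Prss2 (0.77). The median over all genes tested was 3.94. The mean of the 6 itself differs between the groups, so a gene with no group difference lies far from it. Nearness thus in large part restates a fall of similar size. Of the 8 nearest, Cela1 and Cela3b are elastases, Cpb1 a carboxypeptidase, Ctrl and Prss2 serine proteases, and the rest tissue kallikreins. Of the 6 themselves Cel lay nearest (0.27) and Pnliprp2 farthest (1.16). Tissue kallikreins have near-identical copies, so the Klk1b26 and Klk1b5 probes may read more than 1 gene.

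Other acinar products were lower as well. Of 18 acinar digestive enzymes tested, 18 were lower and 12 fell in limma, with a median of -6.07. The 6 with the smallest p were Rnase1, a ribonuclease (-8.08 ± 0.81, log2, SE), Ctrl (-6.36 ± 0.80), Cela3a (-5.38 ± 0.68), Cela3b (-6.48 ± 0.83), Cpb1 (-7.65 ± 0.98) and Klk1 (-7.87 ± 1.07). The background call was cleared on only 1 of 6 tumor arrays by Rnase1 and by Klk1 and on 4 by Cpb1, so their sizes rest in part on readings at background. Of 10 granule, inhibitor and other secretory products 8 fell, with a median of -5.06 (-4.57 with 2 genes at their bound), among them Pdia2, a disulfide isomerase of the exocrine pancreas (-5.28 ± 0.63), Zg16, a zymogen granule lectin (-4.29 ± 0.64), Sycn, syncollin (-5.57 ± 0.90), Spink1, a trypsin inhibitor (-4.84 ± 0.79), and Gp2, the main granule membrane glycoprotein (-6.43 ± 1.11). Cuzd1, a zymogen granule protein, had 0 of 6 tumor arrays well above background. It was at least 12.9-fold lower (limma adjusted p = 0.00784, from readings at background and not from the bound).

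Genes that control acinar cells changed in part. Of 7 acinar regulators and secretagogue receptors tested, 3 fell and 0 rose in limma, with a median of -2.99 (-1.53 with 2 genes at their bound). Cckar, the receptor through which cholecystokinin triggers enzyme secretion, had 0 of 6 tumor arrays well above background. It was at least 5.49-fold lower (limma adjusted p = 0.0066, from readings at background and not from the bound). Rbpjl, the acinar subunit of the PTF1 transcription factor, fell by 2.99 on the log2 scale (SE 0.53; limma adjusted p = 0.0309), and Nr5a2, a nuclear receptor of acinar cells, fell by 4.34 (SE 0.86; limma adjusted p = 0.0483). Its groups overlapped, and 1 of 6 tumor arrays was well above background. Ptf1a was among 3 list members that did not pass the filter on low signal.

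Among phospholipases and lipases outside the pancreatic set, 0 passed in limma. Counts at an unadjusted p under 0.05 are read against 12.9% of all genes tested (2121 of 16402) at that level. Of 5 other secreted phospholipases A2 tested, 5 were lower, 3 of them at an unadjusted p under 0.05, with a median of -0.79. Pla2g2d, a secreted phospholipase of lymphoid and myeloid cells, differed by -2.82 ± 0.73 (log2, SE; limma adjusted p = 0.130) and another probe of it gave -2.62. Pla2g3 differed by -0.79 ± 0.30, with another probe at -0.04, and Pla2g2c by -0.98 ± 0.41. The other 6 members of that list did not pass the filter on low signal.

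Of 5 intracellular and plasma-type phospholipases A2 tested, 3 were lower and 2 higher, with a median of -0.018, and 1 was higher at an unadjusted p under 0.05. That was Pla2g7, the platelet-activating factor acetylhydrolase that macrophages secrete, at 0.64 ± 0.27 (log2, SE; limma adjusted p = 0.356). Plaat3 differed by -0.27 ± 0.31 and Pla2g15, the lysosomal phospholipase, by 0.42 ± 0.49. Of 14 other lipases and lipase cofactors, 8 were lower and 6 higher, with a median of -0.019 and 3 lower and 1 higher at an unadjusted p under 0.05. Apoc2, the cofactor of lipoprotein lipase, was at 3.20 ± 0.55 in tumor and 1.47 ± 0.59 in normal samples (log2 signal, SD, n = 5 each), a difference of 1.73 ± 0.35 (SE) just short of the threshold (limma adjusted p = 0.0544). Abhd6, a monoacylglycerol hydrolase, differed by -1.96 ± 0.54 and Lpl, lipoprotein lipase, by -0.65 ± 0.27, and another Lpl probe gave -0.13.

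**Figure D4:**
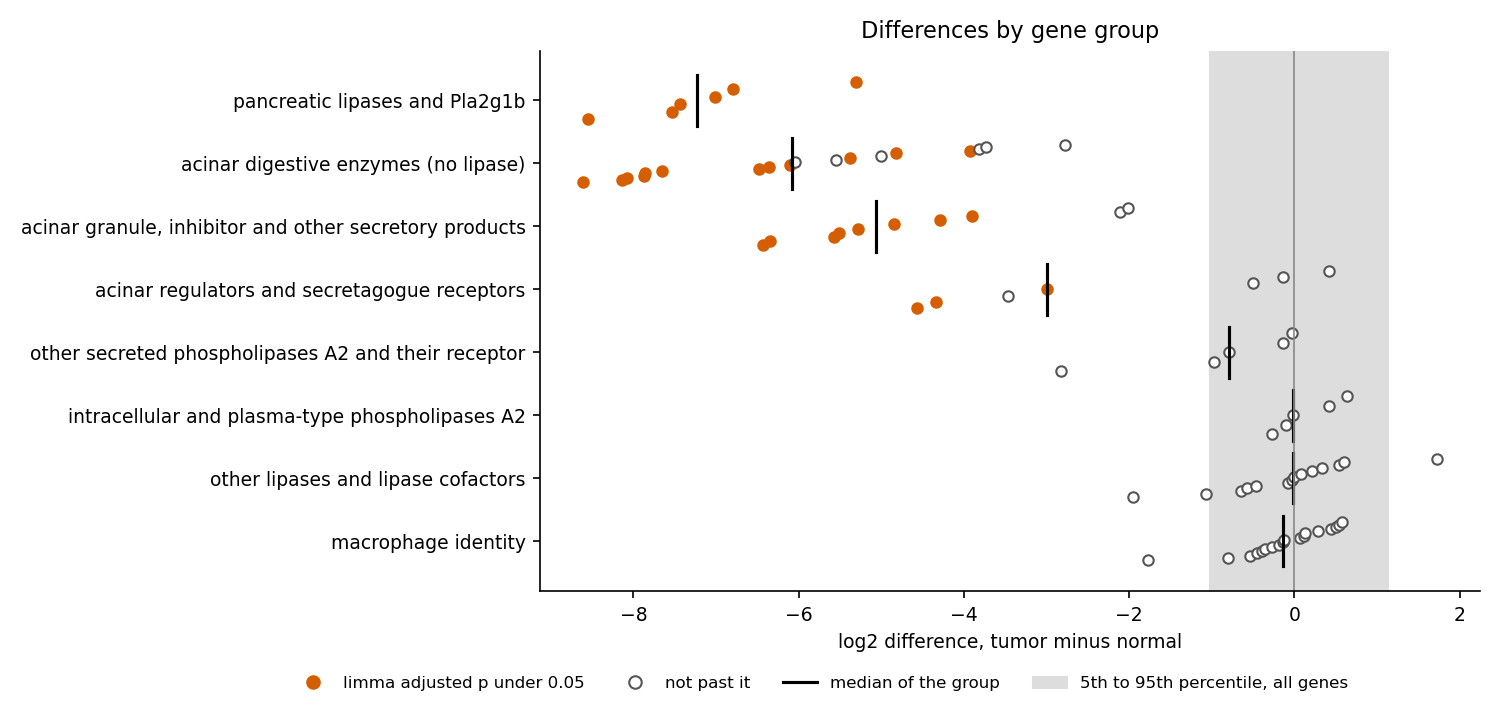
Log2 difference, tumor minus normal (x axis), for each tested gene of the groups named on the y axis, filled where limma's adjusted p was under 0.05, with a bar at each group's median and a grey band from the 5th to the 95th percentile of all genes tested. The 6 genes span -8.55 to -5.30, well outside the band of -1.02 to 1.14, as do most acinar products, while macrophage identity genes have a median of -0.13. Genes at background in 1 group, such as Pnliprp2, are drawn at their measured difference and not at their bound.

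The sort was checked by marker lists. Macrophage identity genes were bright in both groups, with list means of 4.51 to 4.87 in tumor samples and 4.46 to 5.20 in normal samples (log2 signal), and 0 of 18 passed in limma (3 at an unadjusted p under 0.05, median difference -0.13). The smallest p among them belonged to Cd163 (-1.77 ± 0.45, log2, SE), Adgre1 (-0.80 ± 0.24) and Fcgr3 (0.54 ± 0.22). Islet markers were lower in tumor for 6 of 6 tested, with list means of -1.17 to -0.68 in tumor samples and -0.18 to 3.31 in normal samples, and 0 passed in limma (4 at an unadjusted p under 0.05). The hormone genes Ppy, Ins2 and Ins1 differed by -0.88 ± 0.23, -3.12 ± 0.84 and -3.24 ± 0.97. Duct, fibroblast and endothelial lists had medians of -0.40, -0.43 and -0.10, with 0 calls in limma and 0 at an unadjusted p under 0.05. Neutrophil markers had a median of 1.92 (1.46 with 1 gene at its bound), and 1 of 8, Retnlg, rose (4.34 ± 0.78; limma adjusted p = 0.0338), while Mmp9 differed by -2.37 ± 0.61. S100a8 had 5 of 6 tumor and 0 of 6 normal arrays well above background and stood at least 2.57-fold higher in tumor, without passing (limma adjusted p = 0.125). The part of islet, neutrophil or other cells in the lipase differences was not tested.

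Genes next to the 6 were also examined. Pnlip, Pnliprp1 and Pnliprp2 follow each other on chromosome 19 in the RefSeq gene table with no other protein-coding gene between them. Of 16 protein-coding genes that lie within 2 places of any of the 6 and are not among them, 10 were tested, with differences of -0.91 to 0.52 (log2), and 0 passed in limma (1 at an unadjusted p under 0.05). None of the tested neighbours is on chromosome 19.

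The stretches just before the gene starts were read for 3 words on both strands. CAGGTG is a core that E-box factors bind. GTGGGAA is a core of RBPJ-type factors such as the PTF1 subunit Rbpjl. TATAAA is the TATA box. The words were chosen after the sequences had been read. RefSeq promoter entries (GRCm38.p6) were found for 5 of the 6 genes, all but Clps. The 250 bases before the start of Pnlip and of Cel are shown because they hold the most words, with the words in capitals on either strand.
Pnlip (chr19:58670115-58670364, plus strand): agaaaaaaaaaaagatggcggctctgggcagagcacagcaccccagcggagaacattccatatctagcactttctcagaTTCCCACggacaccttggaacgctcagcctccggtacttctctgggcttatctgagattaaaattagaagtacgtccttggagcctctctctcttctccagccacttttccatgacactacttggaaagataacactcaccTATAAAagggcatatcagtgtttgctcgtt
Cel (chr2:28563404-28563653, minus strand): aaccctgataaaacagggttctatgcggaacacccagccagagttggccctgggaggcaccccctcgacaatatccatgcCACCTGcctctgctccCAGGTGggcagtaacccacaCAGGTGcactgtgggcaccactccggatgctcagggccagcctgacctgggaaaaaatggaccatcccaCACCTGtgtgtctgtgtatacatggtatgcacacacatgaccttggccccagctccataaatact
Cel held CAGGTG 4 times and Pnlip held GTGGGAA and TATAAA once each. CAGGTG was present in 2 of 5 genes, in 12 of 17 other digestive enzymes and in 17.2% of 32851 promoter entries. GTGGGAA was present in 2 of 5 (Pnlip and Pnliprp1), in 2 of 17 and in 5.42% of entries, and TATAAA in 1 of 5, in 8 of 17 and in 12.4%. No word was found before Pla2g1b. A word is a run of letters and no measured binding site.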

How the data were processed

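Macrophage mRNA was measured on 12 one-color arrays (6 tumor, 6 normal). The deposited intensity of each spot came, per the file headers, from Agilent Feature Extraction 11.5.1.1, red channel only, with spatial and multiplicative detrending switched on. That version is also in the submitters' processing notes. Per the labels' protocols, cDNA was amplified and labelled with Cy5, so a fold is one of amplified signal. A log2 table deposited by the authors matched quantile-normalized log2 processed signals (lowest correlation over arrays 0.9999, column medians 7.08), which fixed its scale and showed no centring by gene.

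Of 44397 spots 43020 were not controls, 0.401% of those had outlier flags and were left out, and 0 were saturated. Log2 processed signals were averaged per probe (39429) and each array's 75th percentile was subtracted. That percentile ran from 1091 to 1398 on tumor arrays and from 398 to 1547 on normal arrays, and 51.1% to 55.6% of probes on tumor arrays and 39.3% to 58.7% on normal arrays were well above background. The filter kept 22446 probes, those flagged well above background on 3 or more of a group's 6 arrays. Genes were named through RefSeq accessions (28025 probes), symbols (3413), synonyms (295) or the file (4985), and each gene took its brightest kept probe. Probe positions are those of the files (mm9). The sequence of the Pnlip probe is not reported here.

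The main test was limma 3.58.1 (R 4.3.3; lmFit, then eBayes) on 5 samples a group, two-sided, with a threshold of 0.05 after Benjamini-Hochberg adjustment across 16402 genes. The number of arrays limits precision (median SE 0.35 on the log2 scale). The members and lists were chosen with earlier results of these data known. Named genes follow a fixed rule: the 6 genes, the called or lowest-p genes of each list, and the 8 nearest profiles, of the marker lists the 3 lowest p (not printed for duct, fibroblast and endothelial lists, where no p was under 0.05). Python 3.11.15 drew the figures.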

Additional observations from a re-analysis of the deposited data

Results flagged for a closer look

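Of 16 sets of 5 samples (8 probes in 2 groups), 1 held a sample far from the rest. Tumor replicate 5 was at -4.80 for Pnliprp2 (log2 signal relative to the 75th percentile), against -5.78 to -5.56 in the other tumor samples. The probe was not well above background there or on any other tumor array. The same sample was the highest of its group for the other 5 genes. Chance flags about 1 in 20 such sets.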

How the results depend on the processing

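No paired analysis was possible because the labels give no replicate numbers shared by the groups. With 139 genes called in limma, of which 6 were the lipase genes, the number called was 214 with normexp, 458 with 12 arrays as separate samples and 235 with a trended, robust fit, and the 6 stayed called in each. Within slides 1, 2 and 3 it was 0, with 1588, 1561 and 954 genes at an unadjusted p under 0.05, and 0 of the 6 passed. With the acinar enzyme mean as covariate it was 0 genes (492 at an unadjusted p under 0.05) and 0 of the 6, and Pnliprp1, Cel and Clps turned to 1.43, 0.19 and 1.01 (limma adjusted p = 0.9998). Leaving out each sample in turn gave 59 to 197 genes and 3 to 6 of the 6. The lowest of both came without normal replicate 5. Scaling on macrophage identity genes moved the median of all genes by 0.13 and left 5 of the 6 called (Clps adjusted p = 0.0518 in limma), and the mean of a gene's probes also left 5 (Clps adjusted p = 0.0753). The cause of these changes was not tested. Pnlip, Pnliprp2 and Pla2g1b passed whichever 1 sample was left out. For Pnliprp2 all tumor readings were at background, with an SD of 0.40, so its passing does not show a steadier fall. Tumor readings near background limit the sizes of the differences most for Pnliprp2, Pnliprp1 and Pla2g1b.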
